A study of Arabidopsis thaliana with 41 samples.

Results

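Expansins and xyloglucan endotransglucosylase/hydrolases (XTHs) are the proteins best known for loosening and remodelling the growing plant cell wall, and 53 genes of these families were followed in rosette leaves of Arabidopsis thaliana under mild soil drying. The members were taken by locus from a list of EXPA, EXPB, EXLA, EXLB and XTH genes, and all 53 were among the 21164 measured loci. They comprised 25 expansin genes (19 alpha-expansins, EXPA; 2 beta-expansins, EXPB; 3 EXLA and 1 EXLB expansin-like genes) and 28 XTH genes (22 of group I/II, 2 of group III-A and 4 of group III-B). Each gene had 1 deposited value per array, a log2 hybridisation signal, so changes below are differences of log2 signal, and levels of different members were not compared because each has its own probes.

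Growing plant cells enlarge when turgor stretches a wall of cellulose microfibrils tethered by xyloglucan and embedded in pectin. Alpha-expansins loosen this network without cutting it, and they act best at the acid pH that plasma membrane proton pumps create. XTH enzymes cut xyloglucan and either rejoin the cut end to another chain or, in group III-A, hydrolyse it, while the expansin-like EXLA and EXLB proteins carry the expansin domains but have no established loosening activity. Leaf growth slows early in drying soil, which is why these families are of interest in a mild drought.

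The 41 arrays covered 7 natural accessions (Ag-0, Tamm-2, Ull2-5, Omo2-3, Bil-5, Got-22 and Eden-1), each kept wet or dried. In dry pots the remaining available water was brought down stepwise over 5 days to about 50%, while wet pots were held near 90%. The accessions are wild-derived lines with no transgene or mutation named in the labels, and plants grew singly in pots of ceramic medium. Every one of the 14 groups had 3 arrays except dry Ag-0, which had 2, giving 20 dry and 21 wet arrays. The design text describes replicates as biological. The p-values set each difference against the spread between replicate arrays within the 14 groups. They do not cover how accessions outside these 7 would vary.

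Array medians lay between 5.66 and 5.79 and values between 3.35 and 14.30. Replicate 3 of dry Tamm-2, replicate 3 of dry Bil-5 and replicate 2 of wet Bil-5 stood apart from the rest, with limma array quality weights of 0.327, 0.271 and 0.360. Leaf mesophyll was represented by RCA and GAPB, 2 of 6 listed markers, whose mean signal ran from 10.95 to 12.79 over the arrays. The mean of 6 root markers ran from 4.69 to 5.08. Among the members, 11 of 53 had a mean signal in the lowest 25% of loci, below 4.40, and 42 lay above that. The low-signal members were EXPA9, EXPA14, EXPA16, EXLA3, XTH3, XTH5, XTH10, XTH11, XTH14, XTH21 and XTH26. Of 9 members known from roots, including the root-hair expansins EXPA7 and EXPA18 and the root-expressed XTH14 and XTH26, 0 rose and 0 fell with drying in limma, and 0 had an unadjusted p under 0.05.

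Some members rose and others fell under drying, and their shares were not tested against those of all loci. Averaged over the 7 accessions, 9 of 53 members (16.98%) rose in dry soil, where 12.2% of all loci rose, and 5 of 53 (9.43%) fell, where 11.5% of all loci fell, in limma's test with Benjamini-Hochberg adjustment over all loci at a threshold of 0.05. At an unadjusted p under 0.05 there were 11 higher (20.8%, against 17.3% of all loci) and 6 lower (11.3%, against 16.8%). The genes that rose were XTH22, XTH23, XTH28, XTH31, XTH32, EXLA1, EXPA5, EXPA10 and EXPA13, and those that fell were XTH7, XTH8, XTH24, XTH30 and EXPA8. The median change over the 53 members was 0.02, against -1.86e-04 over all loci. The median size of change without regard to sign was 0.118 among members and 0.0767 among all loci, and the residual SD between replicate arrays was also larger among members, with a median of 0.415 against 0.194. In bulk leaf tissue a lower signal from fewer cells of a type and one from less RNA per cell cannot be told apart.

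**Figure D1:**
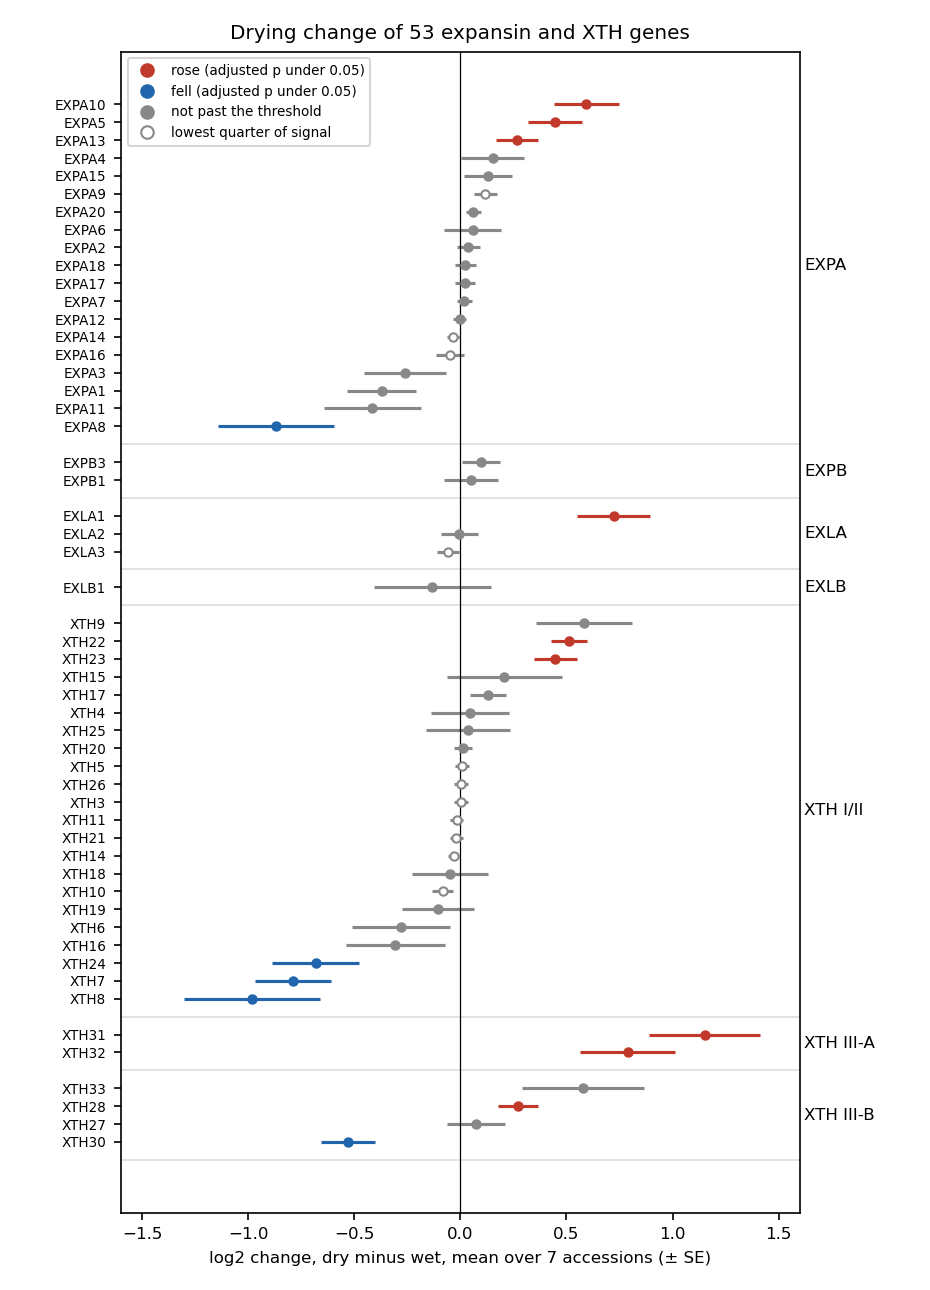
Drying change of each of the 53 members on the log2 scale (horizontal axis, dry minus wet, mean over 7 accessions) with its SE as a bar, grouped by subfamily; red points rose, blue points fell and open points had low signal. The 9 rises and 5 falls spread over EXPA, EXLA and every XTH group, from -0.98 for XTH8 to 1.15 for XTH31, while the low-signal members lie close to 0.

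Group III-A of the XTH family consists of XTH31 and XTH32, and both of its measured members rose. XTH31 (AT3G44990), an enzyme known to hydrolyse xyloglucan, had wet values of 3.74 at the lowest, 4.04 at the median and 5.19 at the highest, and dry values of 3.804, 5.10 and 9.31. In 9 of 20 dry arrays the signal lay above every wet array, and the 3 dry Omo2-3 arrays stayed among the lowest values. The change was 1.15 ± 0.26 (SE; adjusted p = 0.00162), with dry higher in 6 of 7 accessions. The highest value came from replicate 3 of dry Tamm-2, and without the 3 arrays of low quality weight the change was 0.95 ± 0.14 (adjusted p = 2.32e-05 over 38 arrays).

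XTH32 (AT2G36870), the other member of that group, had wet values of 5.40, 7.36 and 8.67 (lowest, median and highest) and dry values of 7.05, 8.15 and 9.22. The ranges overlapped widely, yet 5 dry arrays exceeded every wet one and 5 wet arrays lay below every dry one, among them 1 wet Bil-5 array at 5.40 and 1 wet Tamm-2 array at 5.48. The change was 0.79 ± 0.22 (adjusted p = 0.0100), higher in 7 of 7 accessions. Changes of XTH32 within accessions ran from 0.15 in Eden-1 to 1.43 in Tamm-2.

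Group I/II holds most of the transglycosylating enzymes, and 2 of its 22 members rose while 3 fell, with a median change of -0.01. Among all loci 12.2% rose and 11.5% fell, and the group's shares were not tested against these. XTH22 (AT5G57560), also called TCH4, is the XTH induced by touch and by growth hormones, and it had the smallest drying p of the 53 members. Its wet values were 11.10, 11.81 and 12.30 and its dry values 11.83, 12.37 and 12.75. In 12 of 20 dry arrays the signal was above every wet array, and in 11 of 21 wet arrays it was below every dry array. The change was 0.51 ± 0.09 (adjusted p = 6.10e-05), and it lay between 0.38 and 0.75 in all 7 accessions, the narrowest such range among the members that rose or fell.

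XTH23 (AT4G25810), a close relative of XTH22, had wet values of 4.36, 4.86 and 5.49 and dry values of 4.48, 5.09 and 6.83. Dry arrays exceeded every wet array in 8 of 20 cases, and the highest ones came from Eden-1 and Ull2-5. The change was 0.45 ± 0.10 (adjusted p = 0.00135), higher in 7 of 7 accessions. Leaving out Eden-1 lowered it to 0.30 and ended the call (adjusted p = 0.0521).

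The 3 members of group I/II that fell were XTH7, XTH8 and XTH24. XTH7 (AT4G37800) had wet values of 5.64, 7.51 and 8.97 and dry values of 5.55, 6.87 and 8.29. Its ranges overlapped through most of their length, with 8 of 21 wet arrays above every dry array. The change was -0.79 ± 0.18 (adjusted p = 0.00157), and dry was lower in every accession, from -0.40 in Omo2-3 to -1.53 in Bil-5.

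XTH24 (AT4G30270), known as MERI5 from its cloning as a meristem gene, had wet values of 9.80, 10.68 and 12.20 and dry values of 8.37, 10.31 and 11.07. There were 6 dry arrays below every wet array and 8 wet arrays above every dry array. It fell by 0.68 ± 0.21 (adjusted p = 0.0151), lower in 7 of 7 accessions and lowest in Tamm-2 at -1.64. The call ended without replicate 2 of dry Ag-0 (adjusted p = 0.0502) or without Tamm-2 (adjusted p = 0.0688), and with array quality weights (adjusted p = 0.0543).

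XTH8 (AT1G11545) had wet values of 7.13, 9.35 and 9.99 and dry values of 5.64, 7.86 and 9.82. The 6 dry arrays below every wet array included arrays of Eden-1 and replicate 3 of dry Tamm-2. The change was -0.98 ± 0.32 (adjusted p = 0.0240), lower in 6 of 7 accessions, with -2.11 in Ag-0 and 0.39 in Omo2-3. It was not past the threshold without replicate 3 of dry Ag-0 (adjusted p = 0.0545), nor without Ag-0 or Eden-1 (highest adjusted p = 0.111).

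In group III-B, XTH30 fell and XTH28 rose. XTH30 (AT1G32170) had wet values of 6.03, 6.77 and 7.38 and dry values of 5.54, 6.27 and 6.92. Of 21 wet arrays, 10 lay above every dry array, and 5 dry arrays lay below every wet array. The change was -0.53 ± 0.13 (adjusted p = 0.00241), lower in every accession but close to none in Eden-1 (-0.05).

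XTH28 (AT1G14720), needed for stamen filament growth in flowers, had wet values of 7.70, 8.08 and 8.77 and dry values of 7.53, 8.37 and 8.99. Dry and wet arrays overlapped nearly completely. The change was 0.27 ± 0.09 (adjusted p = 0.0323), higher in 6 of 7 accessions. This call ended on leaving out any of 10 single arrays (highest adjusted p = 0.0627, without replicate 3 of dry Ag-0) or any of Omo2-3, Tamm-2, Eden-1 and Bil-5 (highest adjusted p = 0.139).

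The other group III-B members did not pass. XTH33, whose protein carries a predicted membrane anchor, ranged from 4.44 to 7.08 in wet and from 4.47 to 8.66 in dry arrays, with a change of 0.58 ± 0.29 (adjusted p = 0.154). XTH27, known from leaf vein development, had a change of 0.07 ± 0.14 (adjusted p = 0.770).

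Among alpha-expansins, 3 of 19 rose and 1 fell, where 12.2% of all loci rose and 11.5% fell, with a median change of 0.02. EXPA10 (AT1G26770), whose level affects leaf size, had wet values of 5.23, 5.52 and 6.10 and dry values of 4.99, 6.15 and 8.09. In 11 of 20 dry arrays it exceeded every wet array, while 1 dry Eden-1 array lay below them all. The change was 0.59 ± 0.15 (adjusted p = 0.00479), higher in 7 of 7 accessions, from 0.04 in Eden-1 to 1.36 in Tamm-2. The highest value again came from replicate 3 of dry Tamm-2, and without the 3 low-weight arrays the change was 0.49 ± 0.13 (adjusted p = 0.00562).

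EXPA5 (AT3G29030), an expansin acting downstream of brassinosteroids, had wet values of 7.70, 8.24 and 8.97 and dry values of 7.31, 8.92 and 9.65. Of the dry arrays, 7 exceeded every wet array, and the lowest of all 41 was a dry Eden-1 array. The change was 0.44 ± 0.13 (adjusted p = 0.0101), higher in 6 of 7 accessions. Without Tamm-2 the call ended (adjusted p = 0.0744).

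EXPA8 (AT2G40610) was the alpha-expansin that fell, with wet values of 7.80, 9.51 and 10.25 and dry values of 6.15, 8.57 and 10.50. There were 6 dry arrays below every wet array, and the highest value of all was also a dry one, from Bil-5. The change was -0.87 ± 0.27 (adjusted p = 0.0189), lower in 7 of 7 accessions. Without Eden-1, where the change was -1.55, the call ended (adjusted p = 0.0722).

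EXPA13 (AT3G03220) rose by the smallest margin, with wet values of 6.17, 6.97 and 7.53 and dry values of 6.75, 7.27 and 7.92. The change was 0.27 ± 0.10 (adjusted p = 0.0465), higher in 6 of 7 accessions. Leaving out any of 27 single arrays (highest adjusted p = 0.112, without replicate 2 of dry Ag-0) or any accession but Ag-0 (highest adjusted p = 0.142) ended the call, as did array quality weights (adjusted p = 0.142).

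EXPA1, an expansin with a role in guard cell walls, had a change of -0.37 ± 0.16 (adjusted p = 0.101), and EXPA11 one of -0.41 ± 0.23 (adjusted p = 0.207). Neither passed the threshold. The remaining alpha-expansins had changes between -0.26 (EXPA3) and 0.15 (EXPA4). The beta-expansins EXPB1 and EXPB3, cell wall proteins of the family that includes grass pollen allergens, had changes of 0.05 ± 0.13 and 0.10 ± 0.09.

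Of the expansin-like genes, EXLA1 rose. EXLA1 (AT3G45970) had wet values of 7.27, 9.06 and 9.63 and dry values of 8.15, 9.69 and 10.92. In 11 of 20 dry arrays it lay above every wet array, and 4 wet arrays lay below every dry one. The change was 0.72 ± 0.17 (adjusted p = 0.00215), higher in every accession, from 0.20 in Ag-0 to 1.02 in Eden-1. Its neighbour on the chromosome by locus number, EXLA3 (AT3G45960), had low signal and a change of -0.06 ± 0.05 (adjusted p = 0.475), and EXLA2 had a change of -0.00 ± 0.09 (adjusted p = 0.978).

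**Figure D2:**
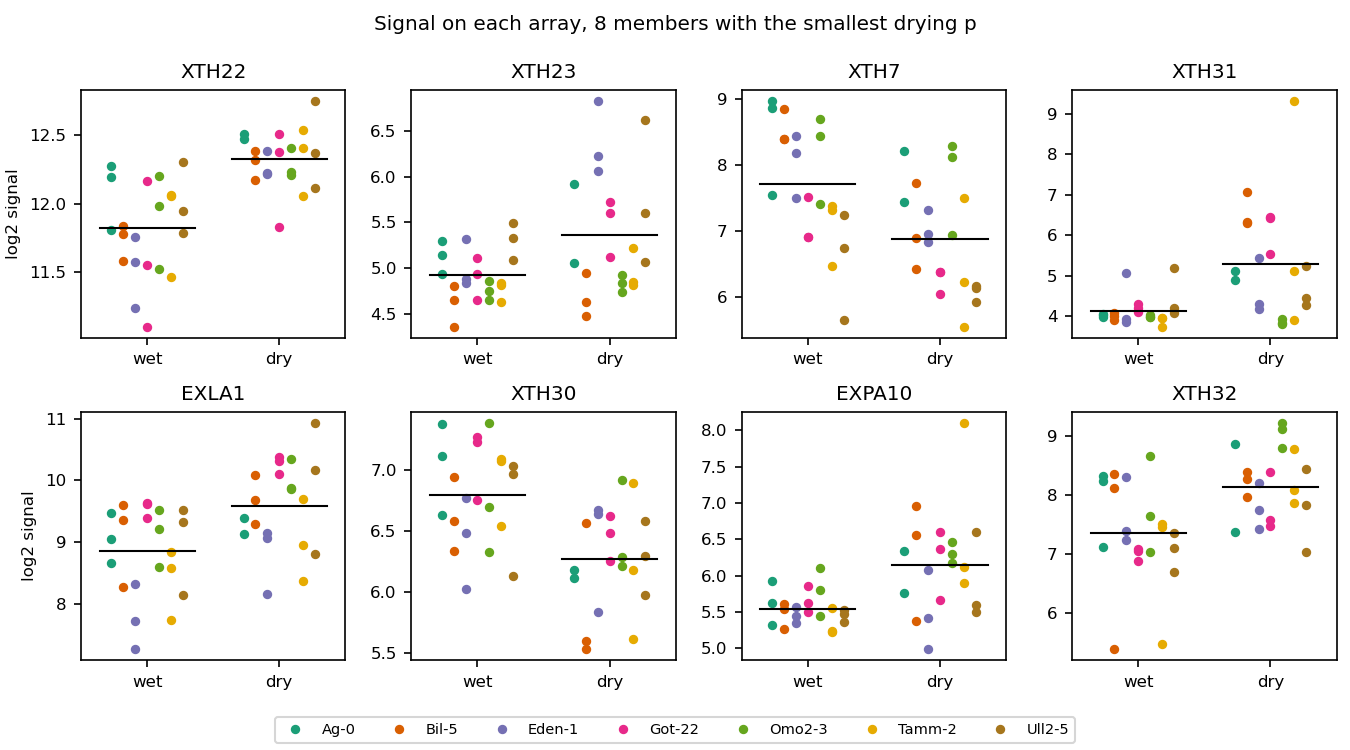
Log2 signal on every array for the 8 members with the smallest drying p, wet on the left and dry on the right of each panel; each point is 1 array, coloured by accession, and the bar is the mean of the arrays. XTH22 shows 12 of 20 dry arrays above every wet array, and the XTH31 panel shows the single dry Tamm-2 array at 9.31.

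Values of these changed genes stood apart in replicate 3 of dry Tamm-2, which held the highest value of all 41 arrays for XTH31 and EXPA10 and the lowest for XTH7, XTH8, XTH24 and EXPA8. Among the 14 members that rose or fell, leaving out the 3 low-weight arrays together kept every direction and ended the calls of EXPA13 (adjusted p = 0.0517) and XTH28 (adjusted p = 0.0510). Other XTH genes had sizeable changes that did not pass, such as XTH9 with 0.58 ± 0.23 (adjusted p = 0.0611), XTH16 with -0.31 ± 0.23 (adjusted p = 0.389) and XTH6 with -0.28 ± 0.23 (adjusted p = 0.440). XTH4, which acts in vascular and fibre walls, had a mean signal of 11.32 and a change of 0.05 ± 0.18.

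Markers of other leaf cell types were read beside these changes. Both phloem markers fell, SUC2 by 0.32 ± 0.09 (adjusted p = 0.00971) and APL by 0.34 ± 0.08 (adjusted p = 0.00286), with list means of 7.16 to 8.16 in dry and 7.32 to 8.42 in wet arrays. Of 4 guard cell and stomatal lineage genes, FAMA fell by 0.15 ± 0.04 (adjusted p = 0.00812), and the other 3 had changes from -0.25 to 0.68, the highest being AT1G22690 (adjusted p = 0.106), with list means of 5.20 to 6.15 dry and 5.26 to 6.19 wet. GAPB, a photosynthetic enzyme of the mesophyll, rose by 0.72 ± 0.16 (adjusted p = 0.00104), and the list means were 11.50 to 12.79 dry and 10.95 to 12.76 wet. Of the 5 xylem, 3 dividing cell, 6 root and 1 trichome markers, 0 passed in either direction in limma, and 0 had an unadjusted p under 0.05. Their list means, dry then wet, were 4.78 to 5.55 and 4.74 to 5.50 for xylem and 4.47 to 5.11 and 4.46 to 5.01 for dividing cells. For root they were 4.71 to 5.06 and 4.69 to 5.08, and for the trichome gene 4.10 to 4.84 and 3.93 to 4.77. The part of cell composition in the members' changes was not tested.

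The drying response of these genes was not shown to differ between accessions. In the interaction F test 0 of 53 members passed, where 0.0284% of all loci passed, and 5 members (9.43%) had an unadjusted p under 0.05 in limma, against 5.88% of all loci. The 6 members with the smallest interaction p were EXPB3, XTH23, XTH6, XTH31, EXPA9 and EXLB1. Against the mean of the other 6 accessions, 0 members had a drying change of their own in any accession, where 0% to 0.0473% of all loci did, with between 1 and 5 members per accession at an unadjusted p under 0.05. The share of all loci at that unadjusted level was not counted, so these numbers have no background. The members closest to the threshold were EXPB3 in Tamm-2 (a difference of 1.08 ± 0.25, adjusted p = 0.232) and XTH23 in Eden-1 (1.07 ± 0.28, adjusted p = 0.381).

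Within single accessions, 4 member calls were made with all arrays weighted equally, all of them rises. With array quality weights there were 10, of which 3 were rises (XTH31 in Bil-5 and Got-22, XTH23 in Eden-1) and 7 were falls (EXPA8, XTH6, XTH7, XTH8 and XTH30 in Bil-5, EXLB1 and XTH10 in Ull2-5), and neither Tamm-2 call was among them. The share of all loci called with these weights was not counted, and Bil-5 held low-weight arrays in both its dry and wet groups. The counts and shares that follow are from the fit with equal weights. In Tamm-2 2 of 53 members passed, where 1.26% of all loci passed in either direction, in Bil-5 1 (4.2% of all loci) and in Eden-1 1 (0.298% of all loci). In Ag-0, Got-22, Omo2-3 and Ull2-5 0 members passed, where 0.421%, 0.0945%, 0% and 1.41% of all loci passed. At an unadjusted p under 0.05 in limma there were 13 members in Tamm-2 (24.5%, against 14.9% of all loci), 8 in Eden-1 (15.1%, against 7.73%) and 7 in Bil-5 (13.2%, against 18.9%). There were 4 in Ag-0 and 4 in Got-22 (7.55% each, against 11.1% and 9.51% of all loci), and 5 in Omo2-3 and 5 in Ull2-5 (9.43% each, against 8.02% and 14.4%). These tests set 3 arrays against 3 (in Ag-0, 2 dry against 3 wet), with the spread taken from all 14 groups.

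EXPB3 (AT4G28250) was a call in Tamm-2. Its wet group means were 5.59 in Ag-0, 5.68 in Bil-5, 5.40 in Eden-1, 5.31 in Got-22, 5.55 in Omo2-3, 5.34 in Tamm-2 and 5.60 in Ull2-5. Its dry group means, in the same order, were 5.32, 5.60, 5.27, 5.73, 5.54, 6.36 and 5.31. In Tamm-2 the 3 dry arrays read 6.54, 5.68 and 6.87 and the 3 wet arrays 5.32, 5.48 and 5.22, so the groups did not overlap. The Tamm-2 change was 1.02 ± 0.23 (adjusted p = 0.0252). The call ended without replicate 3 of dry Tamm-2 (adjusted p = 0.200), without any 1 of the wet Tamm-2 arrays, with array quality weights, without the 3 low-weight arrays (adjusted p = 0.138), and when Tamm-2 was fitted alone (adjusted p = 0.387).

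EXPA9 (AT5G02260), a low-signal gene, was the other call in Tamm-2. Its wet group means were 4.25 in Ag-0, 4.36 in Bil-5, 4.24 in Eden-1, 4.20 in Got-22, 4.60 in Omo2-3, 4.04 in Tamm-2 and 4.18 in Ull2-5. Its dry group means, in the same order, were 4.30, 4.37, 4.36, 4.42, 4.44, 4.58 and 4.21. The dry Tamm-2 arrays read 4.25, 4.61 and 4.88 and the wet ones 4.04, 3.94 and 4.13, again without overlap. The change was 0.55 ± 0.14 (adjusted p = 0.0498), and leaving out any of 28 single arrays ended the call (highest adjusted p = 0.296, without replicate 3 of dry Tamm-2). It also ended with quantile normalization, with array quality weights (adjusted p = 0.163), without the 3 low-weight arrays (adjusted p = 0.229) and when Tamm-2 was fitted alone (adjusted p = 0.410).

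XTH31 was the call in Bil-5. Its wet group means were 4.03 in Ag-0, 3.99 in Bil-5, 4.29 in Eden-1, 4.20 in Got-22, 4.0 in Omo2-3, 3.89 in Tamm-2 and 4.48 in Ull2-5. Its dry group means, in the same order, were 5.00, 6.56, 4.64, 6.13, 3.85, 6.10 and 4.65. In Bil-5 the dry arrays read 7.06, 6.34 and 6.30 and the wet arrays 4.0, 4.09 and 3.89, without overlap, and the change was 2.57 ± 0.68 (adjusted p = 0.0285). The 3 dry Tamm-2 arrays were spread from 3.90 to 9.31, and the dry Omo2-3 arrays lay between 3.804 and 3.92, below the wet ones. The Bil-5 call ended without replicate 1 of dry Bil-5 (adjusted p = 0.119) or any of 4 other Bil-5 arrays, and when Bil-5 was fitted alone (adjusted p = 0.105).

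XTH23 rose in Eden-1. Its wet group means were 5.12 in Ag-0, 4.60 in Bil-5, 5.01 in Eden-1, 4.90 in Got-22, 4.75 in Omo2-3, 4.76 in Tamm-2 and 5.30 in Ull2-5. Its dry group means, in the same order, were 5.49, 4.69, 6.37, 5.48, 4.83, 4.96 and 5.76. The dry Eden-1 arrays read 6.83, 6.23 and 6.06, above the wet ones at 4.84, 4.88 and 5.32, and the change was 1.37 ± 0.26 (adjusted p = 0.0135). Without replicate 1 of dry Eden-1 the call ended (adjusted p = 0.0858), as it did without replicate 1 or 2 of wet Eden-1 and with Eden-1 fitted alone (adjusted p = 0.143).

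XTH6 (AT5G65730) had changes of both signs and passed no drying test with all arrays weighted equally, while with array quality weights it passed in Bil-5 (-1.73, adjusted p = 0.0303). Its wet group means were 8.01 in Ag-0, 7.92 in Bil-5, 6.09 in Eden-1, 8.28 in Got-22, 7.99 in Omo2-3, 8.01 in Tamm-2 and 6.49 in Ull2-5. Its dry group means, in the same order, were 6.65, 6.82, 5.96, 8.10, 8.88, 6.72 and 7.69. The changes thus ran from -1.36 in Ag-0 to 1.20 in Ull2-5, and the interaction had an unadjusted p of 0.0259 in limma (adjusted p = 0.751).

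EXLB1 (AT4G17030) likewise had changes of both signs. Its wet group means were 9.20 in Ag-0, 8.98 in Bil-5, 10.65 in Eden-1, 9.84 in Got-22, 7.33 in Omo2-3, 6.79 in Tamm-2 and 10.19 in Ull2-5. Its dry group means, in the same order, were 9.30, 9.69, 9.66, 9.31, 7.09, 8.42 and 8.58. Its changes ran from -1.61 in Ull2-5 to 1.63 in Tamm-2, where the 3 dry arrays read 8.08, 6.66 and 10.53, and the interaction had an adjusted p of 0.880 in limma.

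**Figure D3:**
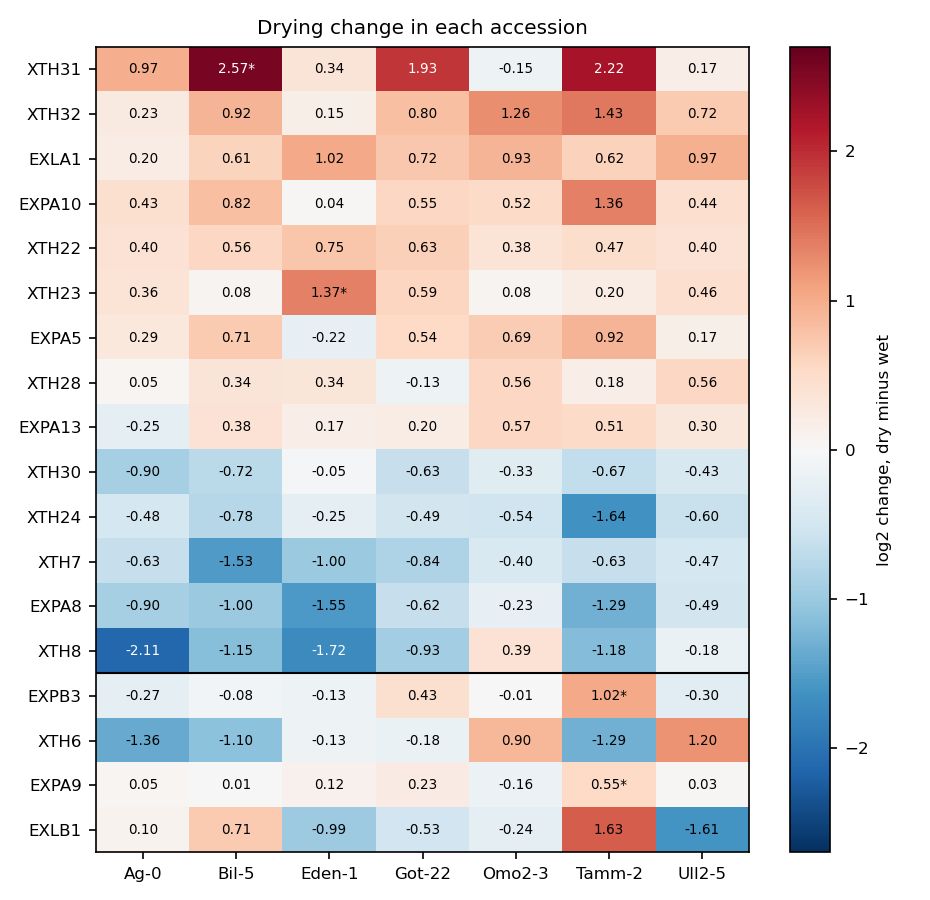
Dry minus wet change on the log2 scale in each accession (columns) for the 14 members that rose or fell (rows above the line) and the other 4 of the 6 members with the smallest interaction p (below the line); red is higher and blue lower in dry soil, and a star marks an adjusted p under 0.05 within that accession. XTH22 stays between 0.38 and 0.75 across the row, while XTH31 runs from -0.15 to 2.57.

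Averaged over both water levels, accessions differed in the level of some members. In the accession F test over both water levels, 13 of 53 members (24.5%) passed, where 31.4% of all loci passed. The genes were EXLA3, EXLB1, XTH7, XTH23, XTH25, XTH6, EXLA1, XTH18, EXPA6, XTH33, EXPA3, EXPA5 and XTH17. On the wet arrays only, 6 members passed, and XTH25 (adjusted p = 0.542), XTH18 (adjusted p = 0.156), EXPA6 (adjusted p = 0.0864) and EXLA1 (adjusted p = 0.0692) were among those that did not. That fit had 21 arrays, and the share of all loci passing in it was not counted. The range between the lowest and highest of the 14 group means had a median of 1.09 among members and 0.561 among all loci. The residual SD between replicate arrays was also larger among members (median 0.415, against 0.194), and its part in these ranges was not tested. The range was widest for EXLB1 (3.86), XTH8 (3.26), XTH6 (2.92), EXPA8 (2.82) and XTH25 (2.77). The probes follow a reference sequence from which wild accessions can differ, and the part of poorer hybridisation in a low value was not tested.

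Eden-1 stood out most often. Against the mean of the other 6 accessions, 10 of 53 members (18.9%) were lower in Eden-1, where 8.09% of all loci were lower, and 3 were higher, where 10.7% of all loci were higher. Those lower were EXPA3, EXPA5, EXPA7, EXPA8, EXLA1, EXLA2, XTH6, XTH8, XTH17 and XTH18, and those higher were EXLB1, XTH23 and XTH25. XTH6 lay between 5.48 and 6.68 on the 6 Eden-1 arrays and between 5.20 and 9.55 on the 35 others, a difference of -1.61 ± 0.33 (adjusted p = 6.47e-04). EXPA3 lay between 5.63 and 7.56 in Eden-1 and between 6.14 and 8.82 elsewhere, a difference of -1.28 ± 0.27 (adjusted p = 0.00104). XTH18, among the members known from roots, lay between 6.08 and 7.58 in Eden-1 and between 6.60 and 8.87 elsewhere, a difference of -1.27 ± 0.25 (adjusted p = 5.34e-04).

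EXLA1, which rose with drying, differed by -1.09 ± 0.24 in Eden-1 (adjusted p = 0.00149), and EXPA5 differed by -0.73 ± 0.18 (adjusted p = 0.00393). XTH25 was higher, at 4.81 to 7.18 in Eden-1 and 3.90 to 7.23 elsewhere, a difference of 1.65 ± 0.28 (adjusted p = 7.17e-05), though its accession effect did not pass on the wet arrays only (adjusted p = 0.542). The ranges overlapped in all of these genes, since single arrays of other accessions reached the Eden-1 values. Leaving out 1 array ended the Eden-1 calls of EXPA7, EXPA8, EXLA2, EXLB1, XTH8 and XTH17 (highest adjusted p = 0.261, EXPA7 without replicate 2 of dry Eden-1). For EXPA8 the highest was 0.165 and for XTH17 0.155, both without replicate 2 of wet Eden-1. For EXLA2 it was 0.120 without replicate 3, for EXLB1 0.0580 without replicate 2 and for XTH8 0.124 without replicate 2 of dry Eden-1.

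Omo2-3 had 2 members higher, where 3.18% of all loci were higher, and 1 lower, where 4.83% were lower. EXLA3 had the largest accession F of the members (14.6, adjusted p = 3.98e-06), and its 6 Omo2-3 arrays lay between 4.31 and 5.07, against 3.76 to 4.39 on the 35 others. Only the lowest Omo2-3 array overlapped with the rest, and the difference was 0.65 ± 0.07 (adjusted p = 4.57e-07). Without Omo2-3 the accession effect of EXLA3 was not past the threshold (adjusted p = 0.106). XTH6 was higher in Omo2-3 by 1.21 ± 0.33 (adjusted p = 0.0193), a call that ended without replicate 1 of wet Omo2-3 (adjusted p = 0.104) or replicate 3 of dry Omo2-3.

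EXLB1 differed between accessions, with array ranges that partly overlapped. Its arrays lay between 6.03 and 8.24 in Omo2-3, between 6.27 and 10.53 in Tamm-2 and between 8.88 and 11.11 in Eden-1. They ran from 7.93 to 10.59 in Bil-5 and from 7.47 to 10.68 in Ull2-5. The differences from the other 6 accessions were -2.01 ± 0.39 in Omo2-3 (adjusted p = 9.90e-04), -1.55 ± 0.39 in Tamm-2 (adjusted p = 0.0104) and 1.43 ± 0.39 in Eden-1 (adjusted p = 0.00844). The Tamm-2 call ended without replicate 2 of dry Tamm-2 (adjusted p = 0.0901). In Tamm-2 EXLB1 was the 1 member lower, where 4.25% of all loci were lower, and XTH33 was the 1 higher, where 3.58% were higher. XTH33 differed there by 1.27 ± 0.40 (adjusted p = 0.0496), and leaving out any of 30 arrays ended that call, with a difference of 0.81 and an adjusted p of 0.292 without replicate 2 of dry Tamm-2.

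XTH7, which fell with drying, also differed between accessions. It lay between 7.44 and 8.97 in Ag-0 and between 5.64 and 7.25 in Ull2-5, which did not overlap. Against the other 6 accessions it was 0.97 ± 0.28 higher in Ag-0 (adjusted p = 0.0445) and differed by -1.17 ± 0.25 in Ull2-5 (adjusted p = 0.00269). The Ag-0 call, the 1 member of 53 higher there against 1.86% of all loci, ended on leaving out any of 19 arrays (highest adjusted p = 0.409, without replicate 3 of dry Ag-0). It also ended with array quality weights (adjusted p = 0.106), without the 3 low-weight arrays, with median centring and with the replicate block (adjusted p = 0.0567). In Ag-0 0 members were lower, where 1.66% of all loci were lower, with 2 at an unadjusted p under 0.05 in limma (3.77%, against 6.31% of all loci).

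XTH23 was low in Bil-5, at 4.36 to 4.95, and high in Eden-1 (a difference of 0.64 ± 0.14, adjusted p = 0.00157) and Ull2-5. It was the 1 member lower in Bil-5, where 2.26% of all loci were lower, with a difference of -0.58 ± 0.14 (adjusted p = 0.0122) that lost its call without replicate 2 of dry Bil-5 (adjusted p = 0.0585) or replicate 3 of wet Bil-5. In Bil-5 0 members were higher, where 2.24% of loci were, with 3 at an unadjusted p under 0.05 in limma (5.66%, against 8.22% of all loci). In Ull2-5 2 members were higher, XTH23 (0.45 ± 0.14, adjusted p = 0.0439) and the low-signal XTH10 (0.22 ± 0.07, adjusted p = 0.0466), where 4.79% of loci were higher, and 1, XTH7, was lower, where 3.2% were lower. Leaving out any of 20 arrays ended the call of XTH23 and any of 30 that of XTH10. Without replicate 2 of dry Ull2-5 the XTH23 difference was 0.24 (adjusted p = 0.331), and XTH10 had an adjusted p of 0.265 without replicate 3 of wet Ull2-5.

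Got-22 had 1 member higher and 1 lower, where 3.95% and 3.85% of all loci were. EXPA6 lay between 7.61 and 8.59 in Got-22 and between 8.13 and 9.87 elsewhere, a difference of -0.81 ± 0.19 (adjusted p = 0.00568). EXLA1 was 0.81 ± 0.24 higher there (adjusted p = 0.0327), a call that ended without any 1 of the 6 Got-22 arrays (highest adjusted p = 0.0894, without replicate 2 of dry Got-22).

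**Figure D4:**
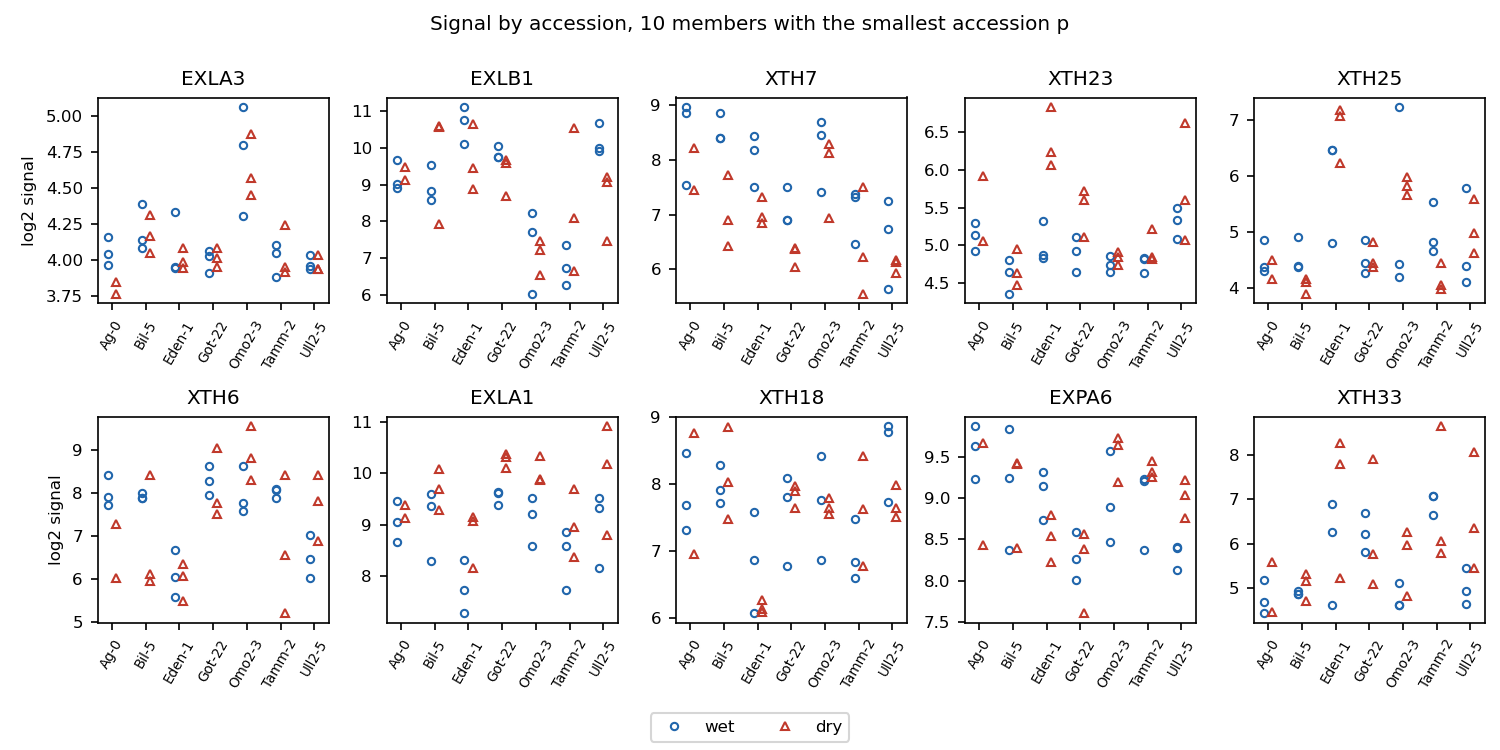
Log2 signal on every array by accession for the 10 members with the smallest accession p; open circles are wet and triangles dry arrays, 3 of each per accession except 2 dry arrays of Ag-0. EXLA3 is highest in Omo2-3, at 4.31 to 5.07, and EXLB1 is low in Omo2-3 and in most Tamm-2 arrays.

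Without Eden-1 the accession effect held for 7 of 53 members, and XTH25 (adjusted p = 0.0791), XTH6 (adjusted p = 0.110), EXLA1 (adjusted p = 0.0758) and XTH18 (adjusted p = 0.402) were among those that ended. The share of all loci passing without Eden-1 was not counted. EXPA6 did not pass without Got-22 (adjusted p = 0.207), and XTH33 did not pass without Bil-5 or Tamm-2 (highest adjusted p = 0.0533). EXLB1, XTH7 and XTH23 passed without any 1 accession and without any 1 array.

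Members next to each other by locus number are given side by side, with no test of the pairs. XTH22 (AT5G57560) rose with drying by 0.51 while its neighbour XTH25 (AT5G57550) had a change of 0.04 ± 0.20. XTH23 rose by 0.45 beside the low-signal XTH14, with -0.03 ± 0.03. In the run of XTH24, XTH18 and XTH19, XTH24 fell by 0.68 while XTH18 had a change of -0.05 ± 0.18 and XTH19 one of -0.10 ± 0.17. As a description over the 41 arrays, with group means removed, Pearson's r was 0.66 between XTH18 and XTH19, 0.47 between EXLA1 and EXLA3, and -0.20 between XTH22 and XTH25, each pair sharing arrays and array quality.

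The genes that build and modify the same wall were read from lists of 63 measured loci outside these families, of which 14 rose and 6 fell. Of all loci 12.2% rose and 11.5% fell, and neither the total nor the single lists were tested against these shares. Of the 11 genes for primary wall cellulose, 5 rose and 0 fell, with a median change of 0.14. They were the cellulose synthase genes CESA1, CESA3 and CESA5, the endoglucanase KOR1 and the orientation factor COB. CESA5 had wet values of 7.65, 8.28 and 8.61 and dry values of 7.85, 8.66 and 9.35, a change of 0.48 ± 0.09 (adjusted p = 2.97e-04). COB changed by 0.41 ± 0.09 (adjusted p = 0.00138) and CESA3 by 0.34 ± 0.08 (adjusted p = 0.00124).

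Of 13 xyloglucan synthesis genes 3 rose and 0 fell, with a median of 0.03. The backbone glucan synthases CSLC4 (0.40 ± 0.11, adjusted p = 0.00807) and CSLC5 (0.33 ± 0.10, adjusted p = 0.0195) and the xylosyltransferase XXT1 (0.37 ± 0.11, adjusted p = 0.0119) rose. Among 3 xyloglucan trimming glycosidases, the fucosidase FUC95A rose (0.47 ± 0.15, adjusted p = 0.0257). The calls of XXT1 (adjusted p = 0.0540 without Tamm-2), CSLC5 (highest adjusted p = 0.0821, without Bil-5, Omo2-3 or Tamm-2) and FUC95A (highest adjusted p = 0.0832, without Bil-5, Omo2-3 or Ull2-5) each ended without 1 accession.

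Pectin genes moved both ways, with 2 of 11 rising and 4 falling and a median of 0.01. The pectin methylesterases PME35 (-0.50 ± 0.11, adjusted p = 6.84e-04) and PME3 (-0.43 ± 0.09, adjusted p = 8.56e-04) fell, and the homogalacturonan synthase GAUT1 rose (0.39 ± 0.09, adjusted p = 0.00112). Of the 4 plasma membrane proton pumps, 0 rose and 0 fell in limma, with 0 at an unadjusted p under 0.05, and AHA2 had a change of 0.19.

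Of 18 genes of growth hormones and growth control, 2 rose and 2 fell, with a median of 0.02. The organ size gene ARGOS had wet values of 4.16, 5.34 and 6.46 and dry values of 4.32, 4.77 and 5.57, and it fell by 0.58 ± 0.10 (adjusted p = 7.64e-05). The brassinosteroid receptor BRI1 rose by 0.34 ± 0.09 (adjusted p = 0.00453, and 0.0752 without Ag-0), the gibberellin biosynthesis gene GA20OX1 rose by 0.25 ± 0.07 (adjusted p = 0.00532), and IBH1, a repressor of cell elongation, fell by 0.65 ± 0.22 (adjusted p = 0.0277). Of the 3 touch genes besides XTH22, 1 rose and 0 fell. The calmodulin-like TCH2 rose by 0.39 ± 0.09 (adjusted p = 0.00223), while the other 2 were lower in dry soil without passing, the lowest at -0.17.

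**Figure D5:**
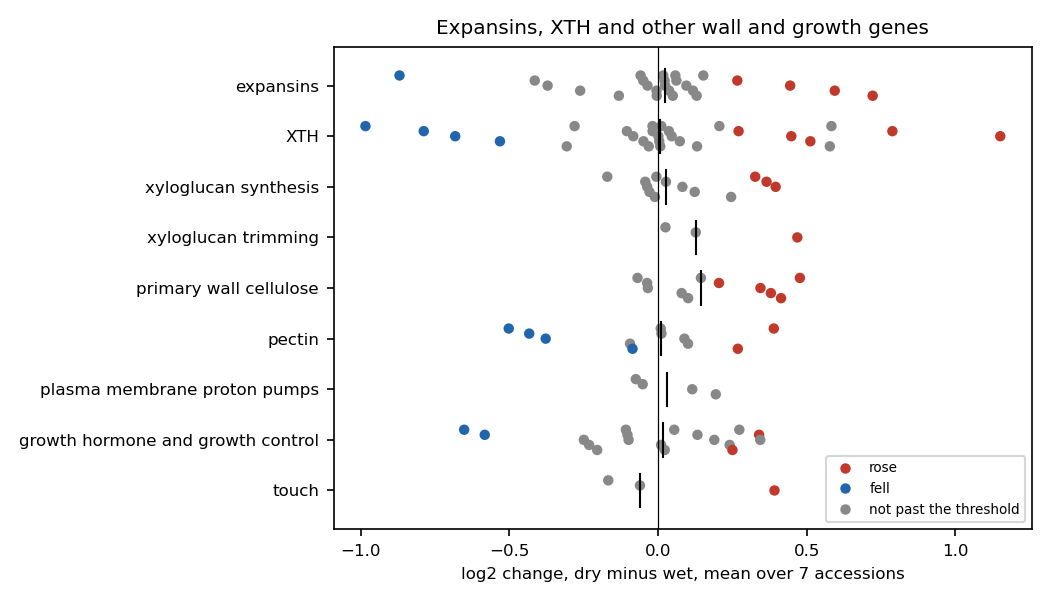
Drying change on the log2 scale (horizontal axis, mean over 7 accessions) of the expansins, the XTH genes and 7 lists of other wall and growth genes; each point is 1 gene, red where it rose, blue where it fell and grey where it did not pass, and the vertical bar is the list's median. Cellulose genes have 5 rises and 0 falls among 11, where 12.2% of all loci rose and 11.5% fell. Expansins and XTH genes extend further in both directions, from -0.98 to 1.15.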

How the data were processed

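The authors deposited 1 log2 value per locus and array, a unit inferred from the values; per the submitters' processing notes, RMA and MAS5 were used, with no role or version for either. The probe filter and the build of the genome were not given in the sources used here. The deposited table held 0 columns that belonged to other samples. Names came from RefSeq's table for TAIR10.1, which matched 53 of 53 members. It was used for names only.

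All 21164 loci were fitted by lmFit and eBayes of limma 3.58.1 (R 4.3.3), with 14 group means over 41 arrays and 27 residual degrees of freedom. The drying change was the mean over 7 accessions of dry minus wet. P-values were two-sided and Benjamini-Hochberg adjusted over all loci, at 0.05. No locus was filtered out. The fit was tested on simulated data. Arrays have no counts, so their number limits the precision.

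The members and gene lists were chosen with earlier results of these data known. Genes are named if past the threshold for drying or within an accession, among the 10 smallest accession p or 5 widest ranges, among the 6 smallest interaction p, or among the 3 smallest drying p of a wall list; other members were named after their values were seen. Alternatives were other normalizations, a low-signal filter, a trend and robust prior, array weights, a replicate block, an additive model, a size filter, single-accession and wet-only fits, and leaving out arrays or accessions.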

Additional observations from a re-analysis of the deposited data

How the results depend on the processing

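For 67 named results recomputed under the alternatives run for each (3506 values), 0 log2 differences changed direction, while F values of the accession effect have no direction. Of these values 302 were no longer past the threshold, and 31 results stayed past it under the alternatives run for them. Leaving out each accession was run for the drying and accession effects, not for calls within an accession or against the other 6. The 31 included the drying changes of XTH22, XTH7, XTH31, EXLA1, XTH30, EXPA10 and XTH32. Leaving out each of 41 arrays gave 7 to 11 members higher and 4 to 6 lower in dry soil, 13 to 17 wall genes higher and 3 to 7 lower, 0 for the interaction, 11 to 17 for the accession effect, 2 to 7 calls within accessions, 17 to 35 calls of an accession against the other 6, and 0 to 1 accession-specific drying changes. With 1 dry Ag-0 array left out, the other is assumed to vary like the other groups. The accession effect moved from 13 members to 21 with array quality weights, 7 without Eden-1 and 6 on wet arrays only. For these counts and for the calls given next, the shares of all loci under the same settings were not counted. Calls within accessions moved from 4 to 10 with array weights and to 0 with each accession on its own arrays, and calls against the other 6 moved from 25 to 45 with array weights and 38 without the 3 arrays of quality weight under 0.5. Without those 3 arrays 1 accession-specific change passed, XTH31 in Bil-5 (2.104 ± 0.45, adjusted p = 0.0493 in limma), and 1 passed without replicate 2 of dry Tamm-2 (EXPB3 in Tamm-2, 1.42, adjusted p = 0.00471) or replicate 2 of wet Ull2-5 (XTH10 in Ull2-5, -0.61, adjusted p = 0.0161). Members lower in dry soil went from 5 to 3 without Eden-1, and members higher from 9 to 5 when a change of at least 0.5 was also required. Wall genes higher went from 14 to 0 under that size filter, and wall genes lower from 6 to 3 under it, without Eden-1, Got-22, Omo2-3 or Tamm-2, and without replicate 2 of dry Ag-0. The cause of these shifts was not tested, apart from the size filter and the smaller numbers of arrays, which are built into those settings. Quantile normalization and median centring shifted the median change of all loci to 0.00303 and 3.84e-04.

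The replicate numbers of the labels were not used as pairs in the main fit, and whether they mark pairs was not settled. Over 20 same-numbered dry and wet pairs, correlations of their deviations ran from -0.493 to 0.544, and 10 were above 0.1. In 7 of the 20 pairs the dry array correlated best with the wet array of its own number, among 3 wet arrays to match. Random matching would give about this share. The 7 pairs included all Ull2-5 pairs (0.147 to 0.370) and no Bil-5, Got-22 or Omo2-3 pair. With the replicate block there were 9 members higher and 5 lower in dry soil, 14 wall genes higher and 4 lower, 0 for the interaction, 13 for the accession effect, 4 within accessions, 23 against the other 6 and 0 accession-specific changes. The calls lost among the 25 were XTH7 in Ag-0 and EXPA7 in Eden-1 (both adjusted p = 0.0567). The EXPA7 call also ended with quantile normalization (adjusted p = 0.109), median centring, the low-signal filter and the trend and robust prior. Quantile normalization ended those of EXLA2 and XTH17 in Eden-1, median centring that of XTH33 in Tamm-2, and each of these 2 scalings those of XTH10 and XTH23 in Ull2-5, which also ended without the 3 low-weight arrays (highest adjusted p of these 0.0811).

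For 11 members the mean signal lay in the lowest 25% of loci, where arrays measure least. Groups of 2 or 3 arrays limit the calls within an accession.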

Other observations

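Some members varied together between replicate arrays of the same group. Over 41 arrays with group means removed, Pearson's r was 0.79 between EXPA13 and XTH32, 0.78 between XTH9 and XTH16, 0.77 between EXPA3 and XTH8 and 0.75 between EXPA6 and XTH32, and over the 38 arrays without the 3 of low quality weight these values were 0.85, 0.78, 0.73 and 0.83. EXLB1 ran opposite to XTH27 and XTH30, with r of -0.82 for both over 41 arrays and -0.81 and -0.79 over 38. Other pairs were weaker over the 38 arrays, EXPA10 with EXPA15 going from 0.80 to 0.59 and EXPA8 with EXPA11 from 0.78 to 0.62. The correlation of EXPA15 with XTH31 rested on the low-weight arrays, with r of 0.73 over 41 arrays and 0.13 over 38. Among all 1378 pairs the median r was 0.06, 48 pairs were above 0.6 and 83 were below -0.4. Pairs of other loci were not counted, so whether members varied together more than other loci was not tested. The pairs named here were chosen after their values were seen, points share arrays and array quality, and no test was made.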
